A study of Mus musculus with 7 samples.

Results

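The enzymes described here build the sugar chains of dystroglycan, and 7 of the 8 genes named for the set (Pomt1, Pomt2, Pomgnt1, B3galnt2, Pomk, Gmppb and Dpm1) were found by gene symbol among the 31531 genes measured. B4gat1, the eighth, was not analysed here. The set was chosen as genes mutated in other congenital muscular dystrophies, and the rule that names them uses no measured value. Expression was measured by RNA sequencing in muscle fibers of mouse fetuses at embryonic day 17.5, in 4 WT and 3 dyW libraries. Both groups came from crosses of heterozygous dyW mice on the C57BL/6 background, and the fetuses were genotyped by PCR. The dyW fetuses were homozygous for a disrupted Lama2 gene, which encodes the laminin α2 chain and is lost in LAMA2-related congenital muscular dystrophy. Fibers were released from the epaxial (back) muscles with dispase and collagenase and were retained on a strainer, so that other cells attached to the fibers could enter the lysate. In such bulk lysates, fewer cells of a type and less RNA per cell cannot be told apart.

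Dystroglycan is a receptor of the muscle membrane whose extracellular α subunit binds laminin through matriglycan, a repeating sugar chain. Matriglycan sits on an O-linked mannose. GMPPB makes GDP-mannose, DPM1 is the catalytic subunit of the synthase that passes this mannose to the lipid dolichol phosphate, and the POMT1-POMT2 complex transfers it to dystroglycan in the endoplasmic reticulum. B3GALNT2 then extends the glycan and POMK phosphorylates the mannose, a step needed before matriglycan is added, whereas POMGNT1 starts a different O-mannose branch in the Golgi. Mutations in each of these genes are linked to disease with poorly glycosylated dystroglycan.

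Several libraries stood apart before any member was considered. Lama2 was at 90.6 to 111 normalized counts in the WT libraries, at 4.29 in dyW1 and at 6.07 in dyW2, but at 139.7 in the library labelled dyW3, which goes against its label. Its limma log2 fold change (dyW minus WT; the test is described with the members) was -2.58 (SE 1.10, adjusted p = 0.103). Without the library labelled dyW3 the estimate was -4.09, a value given with no test because that library was singled out by its Lama2 level. The 143 WT reads of Lama2 were 1.19 times the receptor-gene level that is described with the members (exact 95% Poisson interval 1.005 to 1.40). Reads counted on genes ranged from 470804 to 2220813 in the WT libraries and from 3663905 to 18297106 in the dyW libraries. One read was therefore worth 2.05 to 5.33 normalized counts in WT and only 0.0974 to 0.488 in dyW. The 10 myofiber markers summed to between 2634 and 70062 normalized counts in WT, to 8257 in dyW2 and to 4817 in the library labelled dyW3. In dyW1 they summed to only 65.8, with Ckm, Myh3, Myh8 and Des at 0, so dyW1 nearly lacked the markers of the labelled cell type. The 5 cartilage markers reached 422799 in WT1 against 129 to 8611 in the other WT libraries and 17.2 to 331 in dyW. The 6 erythroid markers summed to 15.99 in WT1 and 14.8 in dyW1, against 28845 to 291219 in the other 5 libraries, and 3 of the 4 myogenic progenitor markers were at 0 in WT1. The 6 fibroblast markers summed to between 4116 and 12484 in WT and between 20348 and 28133 in dyW, but not each marker was higher. In dyW1, Col3a1 was at 232, below every WT library (581 to 4129), and Dcn (134) and Lum (683) lay within the WT range. Col1a1 was at 8467 and Col1a2 at 12046 there. For 2 of the 6, Col1a2 and Pdgfra, every dyW library lay above every WT library, as for 3.28% of all tested genes. The part of these differences in the results below was not tested, and values without single libraries are given beside some of the genes named below.

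Pomt1 and Pomt2 encode both subunits of the O-mannosyltransferase. Pomt1 (ENSMUSG00000039254, GRCm39 chr2:32126592-32145020, plus strand) was at 37.3, 48.5, 30.8 and 56.6 normalized counts in WT1 to WT4, and at 49.8, 0 and 47.4 in dyW1, dyW2 and the library labelled dyW3. The last of these and dyW1 lay within the WT range, while dyW2 held no Pomt1 read, against 511 reads in dyW1. Since a count of 0 still allows up to 3 reads, dyW1 was at least 131-fold above dyW2, within 1 genotype. The group means were 43.3 ± 11.5 (SD, n = 4) for WT and 32.4 ± 28.1 (SD, n = 3) for dyW. The exact two-sided permutation test over the 35 assignments of 7 libraries, whose smallest possible p is 0.0571, gave p = 0.629 for Pomt1 (n = 4 and 3).

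Pomt2 (ENSMUSG00000034126, chr12:87153635-87194742, minus strand) was at 74.6, 51.2, 22.6 and 44.1 normalized counts in WT1 to WT4, and at 19.4, 0 and 11.7 in the dyW libraries. Every WT library lay above every dyW library, although WT3 and dyW1 differed by little: 11 reads in WT3 give an exact 95% Poisson interval that reaches below the dyW1 value, as the plot of the members by library shows. Across all genes tested, 31.5% had every WT library above every dyW library and 3.28% had the reverse, so 1 of 7 members without overlap did not exceed that background. The group means were 48.1 ± 21.5 (SD, n = 4) and 10.4 ± 9.77 (SD, n = 3), and the exact two-sided permutation p for Pomt2 was 0.0571. Both subunits were without a read in dyW2, but in the other dyW libraries they differed from each other, with Pomt1 at 47.4 or more and Pomt2 at 19.4 or less.

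**Figure D1:**
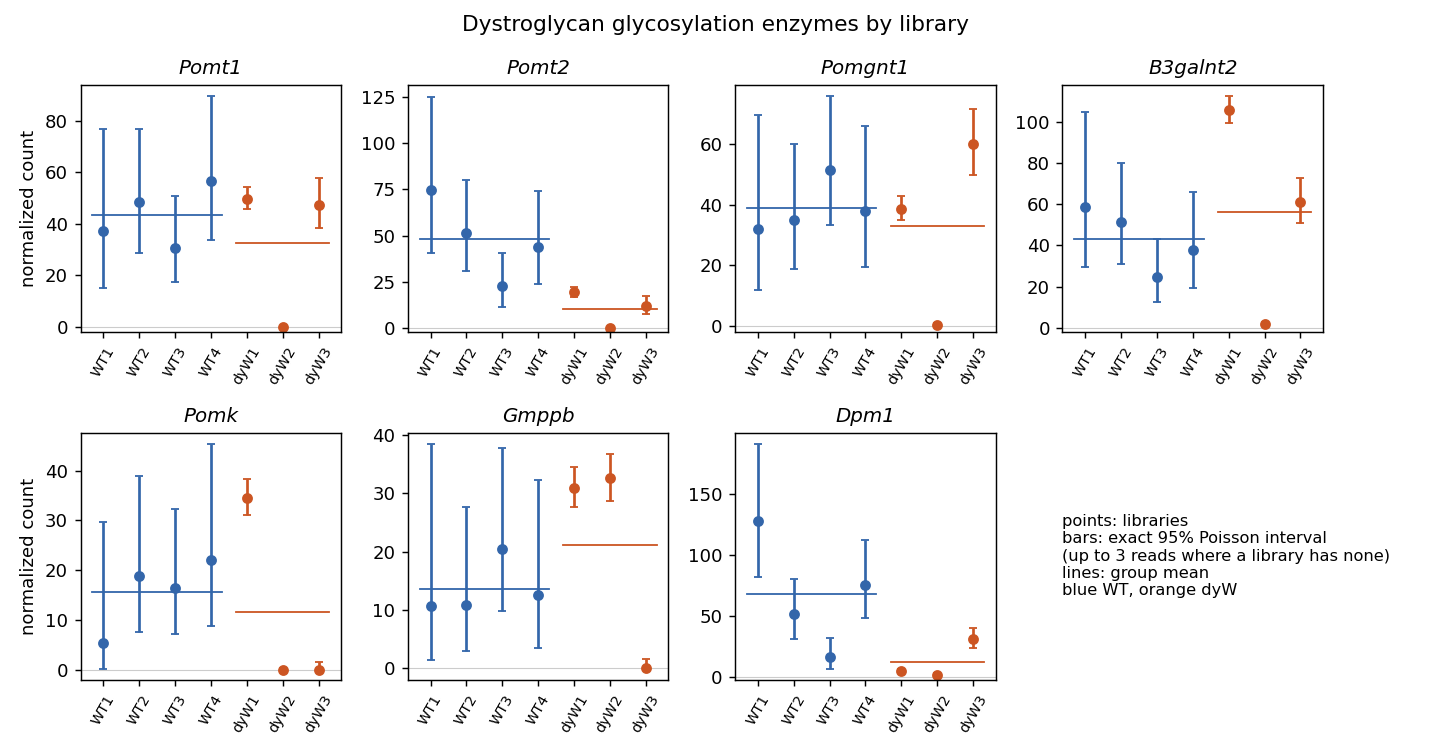
Normalized counts of the 7 members in each library, with WT in blue and dyW in orange. Each panel has its own linear axis, vertical bars are exact 95% Poisson intervals of the reads (counting error only), drawn up to 3 reads where a library has none, and horizontal lines are group means. In dyW2, Gmppb stands at 32.6 while every other member is at 2.02 or less.

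The next enzymes act on the mannose once it is attached. Pomgnt1 (ENSMUSG00000028700, chr4:115980970-116017129, plus strand), which starts the other O-mannose branch, was at 32.0, 35.1, 51.3 and 37.8 normalized counts in WT1 to WT4, and at 38.7, 0.253 and 60.1 in the dyW libraries. The dyW2 value rests on 2 reads, against 123 in the library labelled dyW3, a ratio of 237 in normalized counts with an exact 95% counting interval of 64.4 to 1983. The WT libraries varied by no more than 1.60-fold from the lowest to the highest, so the spread of Pomgnt1 within dyW was far wider than within WT. The means were 39.02 ± 8.51 (SD, n = 4) for WT and 33.0 ± 30.3 (SD, n = 3) for dyW, with an exact two-sided permutation p of 0.80.

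B3galnt2 (ENSMUSG00000039242, chr13:14129009-14187771, plus strand), whose product adds N-acetylgalactosamine to the glycan that will carry matriglycan, was at 58.6, 51.2, 24.6 and 37.8 normalized counts in WT1 to WT4, and at 106, 1.77 and 61.0 in the dyW libraries. Both dyW1 and the library labelled dyW3 lay above every WT library, and dyW2 lay below every one. The 1086 reads in dyW1 against 14 in dyW2 gave a ratio of 59.8 in normalized counts (exact 95% counting interval 35.5 to 109.7). B3galnt2 was 1 of 2 members whose mean was higher in dyW, at 56.2 ± 52.2 (SD, n = 3) against 43.1 ± 15.0 (SD, n = 4), with an exact two-sided permutation p of 0.629.

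Pomk (ENSMUSG00000037251, chr8:26467451-26484189, minus strand), the kinase of the O-mannose, had the lowest mean over all 7 libraries, 13.9, and was at 5.33, 18.9, 16.4 and 22.0 normalized counts in WT1 to WT4, and at 34.6, 0 and 0 in the dyW libraries. These WT values rest on 1, 7, 8 and 7 reads, whereas dyW1 held 355. Neither dyW2 nor the library labelled dyW3 held a Pomk read, which allows at most 0.379 and 1.47 normalized counts, whereas the lowest WT library, WT1, held 1 read (5.33, exact 95% Poisson interval from 0.135), so the counts do not separate WT1 from these libraries. The dyW mean of 11.5 ± 19.97 (SD, n = 3) thus came from dyW1 alone, the library that nearly lacked myofiber markers. Against the WT mean of 15.7 ± 7.26 (SD, n = 4), the exact two-sided permutation p for Pomk was 0.629.

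Gmppb and Dpm1 act before the sugar reaches dystroglycan, and their dyW values differed from each other. Gmppb (ENSMUSG00000070284, chr9:107926441-107930001, plus strand) was at 10.7, 10.8, 20.51 and 12.6 normalized counts in WT1 to WT4, and at 31.0, 32.6 and 0 in the dyW libraries. In dyW1 and dyW2 it was above every WT library, with 318 and 258 reads, and no read fell on it in the library labelled dyW3, where a count of 0 allows 1.47 normalized counts. The means were 13.6 ± 4.67 (SD, n = 4) for WT and 21.2 ± 18.4 (SD, n = 3) for dyW, with an exact two-sided permutation p of 0.514. Gmppb was the only member above 10 normalized counts in dyW2, where it supplied 89.0% of the summed member count.

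Dpm1 (ENSMUSG00000078919, chr2:168050083-168073310, minus strand) was at 128, 51.2, 16.4 and 75.5 normalized counts in WT1 to WT4, and at 5.07, 2.02 and 31.3 in the dyW libraries. It varied most within WT, by 7.80-fold, and the library labelled dyW3 lay above WT3, so the groups overlapped. The means were 67.8 ± 46.9 (SD, n = 4) for WT and 12.8 ± 16.1 (SD, n = 3) for dyW, with an exact two-sided permutation p of 0.114. Gmppb and Dpm1 thus had opposite extremes among the dyW libraries: dyW2 was the highest for Gmppb and the lowest for Dpm1, and the library labelled dyW3 was the reverse.

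Every WT library held reads of all 7, whereas dyW1 held reads of 7, dyW2 of 4 and the library labelled dyW3 of 5. Genes without a read were frequent in dyW. Of the 9503 tested genes whose mean over all libraries lay within the range of the member means (13.9 to 48.7 normalized counts), 0.431% to 4.81% had no read in a WT library, against 32.2% in dyW1, 44.2% in dyW2 and 27.3% in the library labelled dyW3. The summed normalized count of the 7 members was 347, 267, 183 and 286 in WT1 to WT4, and 284, 36.7 and 211 in the dyW libraries. Both dyW1 and the library labelled dyW3 lay within the WT range of this sum, and dyW2 lay below it. In RPM, relative to all reads counted on genes, the members together were at 40.1 to 138 in WT, 203 in dyW1, 15.8 in dyW2 and 118 in the library labelled dyW3, so on that scale dyW1 lay above the WT range.

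In WT the members were read at a level close to that of receptor genes for smell. Odorant and vomeronasal receptor genes, which are expressed mainly in sensory neurons of the nose, gave a median of 0.632 to 2.48 reads per kb of exon over 1208 genes in the WT libraries, of 1.07 in the library labelled dyW3, and of 0 in dyW1 and dyW2. Of the 28 member values in WT, 16 were below the reads that this receptor level gives for the same exon length and 24 were below 2 times that number. Summed over the 4 WT libraries, Pomt1 had 58 reads where the receptor level gives 44.1, a ratio of 1.31 (exact 95% Poisson interval 0.998 to 1.70). Pomgnt1 stood at 1.22 (0.918 to 1.58), Dpm1 at 1.21 (0.955 to 1.52) and Gmppb at 1.07 (0.651 to 1.65). Pomt2 was at 1.05 (0.796 to 1.36) and B3galnt2 at 0.827 (0.621 to 1.08). The intervals of these 6 genes all include 1, and they cover counting error only, because SMART-seq2 amplifies cDNA without molecular identifiers.

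Pomk was the exception, with 23 reads where 64.2 would match the receptor level, a ratio of 0.358 (0.227 to 0.538), and only 1.99% of the receptor genes had fewer reads per kb. The receptor genes themselves ran from 0.581 at their 10th percentile to 1.87 at their 90th. Low ratios were common in these libraries, since 76.2% of all tested genes with a length, and 82.8% of those in the members' range of means, were below 2 times the receptor level in WT. By contrast, Dag1, which encodes dystroglycan itself, had 222 WT reads and a ratio of 4.74 (4.14 to 5.41). In the library labelled dyW3, Pomgnt1 was at 16.7 times the receptor level, Pomt1 at 13.8, B3galnt2 at 11.98, Dpm1 at 6.48 and Pomt2 at 2.72. Thus 5 of the 7 members stood above the receptor level in the library labelled dyW3, and Pomk and Gmppb had no read there. Dag1 stood at 44.1 times that level in this library. The receptor level itself was lower there, at 0.525 normalized counts per kb against 3.37 to 6.69 in WT, so these ratios rest on a lower reference. The share of all tested genes above the receptor level in this library was not computed.

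**Figure D2:**
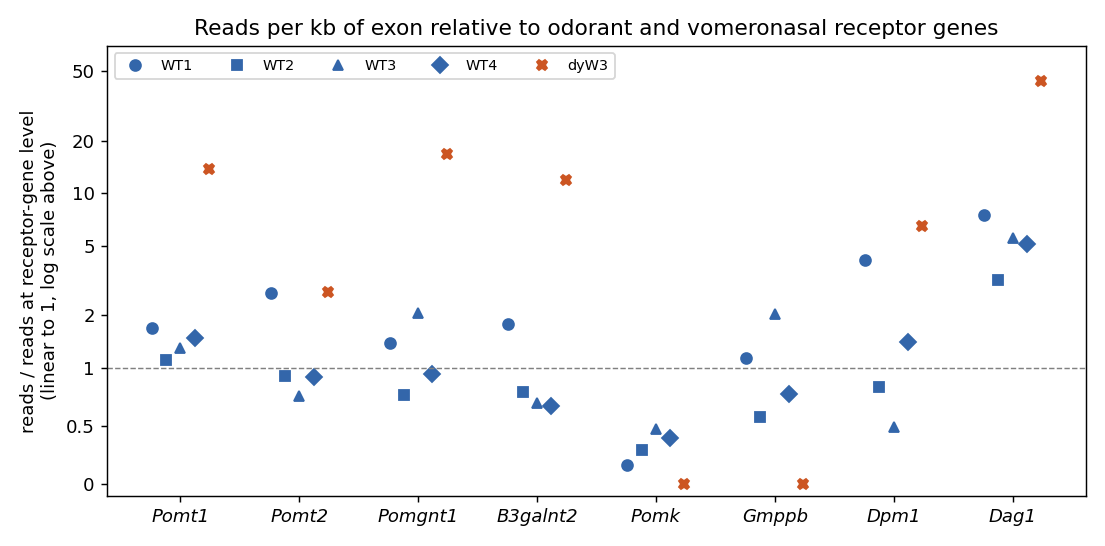
Reads of each member and of Dag1 per kb of exon, divided by the median of the odorant and vomeronasal receptor genes in the same library (axis linear up to 1 and logarithmic above). The WT libraries (blue) lie between 0.166 and 4.13 for the members, and the library labelled dyW3 (orange) lies between 2.72 and 16.7 for 5 of them and at 0 for Pomk and Gmppb. Libraries dyW1 and dyW2 are not drawn because their receptor level is 0.

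Per kb of exon, the WT levels of the members ran in the order Dpm1 (7.38 ± 5.10 normalized counts per kb, SD, n = 4), Pomt1 (6.60 ± 1.76), Pomt2 (5.85 ± 2.61), Pomgnt1 (5.70 ± 1.24), Gmppb (4.89 ± 1.67), B3galnt2 (4.44 ± 1.55) and Pomk (1.64 ± 0.761). No neighbours in this order differed by more than their SDs except B3galnt2 and Pomk. The order depended on the length used: per kb of coding sequence Dpm1 was at 86.9 and B3galnt2 at 28.4, followed by Pomt2 at 19.2, Pomt1 at 18.7, Pomgnt1 at 17.7, Pomk at 15.0 and Gmppb at 12.6. Dag1 was at 24.1 ± 4.42 normalized counts per kb of exon in WT, above each member's mean, but per kb of coding sequence it was at 62.7, below Dpm1.

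The comparison of dyW with WT asked which genes respond to the loss of laminin α2 before birth, and none of the 7 members passed it. Groups were compared with limma on log2(normalized count + 1), a scale that understates the change of low genes, over the 25791 genes with a mean of at least 5 normalized counts. A gene was called when its Benjamini-Hochberg adjusted p was under 0.01 and its absolute log2 fold change was over 1.5. By this rule 18.7% of all tested genes were called lower in dyW and 0.0659% higher, and 0 of the 7 members were called. That background itself was 0 with libraries scaled to 1 total and without WT2, WT4 or dyW2. With an adjusted p under 0.05 and no fold limit, 29.6% of the tested genes were lower and 1.01% higher, and again 0 members passed, although 2 had an unadjusted limma p under 0.05, which 44.3% of all tested genes reached.

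These were Pomt2 and Dpm1. The limma log2 fold change of Pomt2 was -2.83 (SE 1.09, 95% interval -5.29 to -0.36, adjusted p = 0.0765), and that of Dpm1 was -2.70 (SE 1.02, 95% interval -5.03 to -0.38, adjusted p = 0.0731). Pomk followed at -2.19 (SE 1.31, adjusted p = 0.230), Pomt1 at -1.68 (SE 1.33, adjusted p = 0.362) and Pomgnt1 at -1.44 (SE 1.27, adjusted p = 0.411). B3galnt2 at -0.67 (SE 1.202, adjusted p = 0.698) and Gmppb at -0.47 (SE 1.24, adjusted p = 0.797) were nearest to 0, and both had a higher mean in dyW on the linear scale. All 7 point estimates were negative, but so were 79.6% of those of all tested genes and 86.9% of those in the members' range of means. The median over the members was -1.68, beside -1.99 over all tested genes. Relative to that median, Pomt2 stood at -0.84 and Dpm1 at -0.72, whereas B3galnt2 stood at 1.32 and Gmppb at 1.52.

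The libraries that stood apart decided several of these values. Without dyW1, the fitted log2 fold change of Pomk was -3.91 (limma adjusted p = 0.0144) and that of Pomt2 was -3.67 (adjusted p = 0.0362), so that both passed the rule with no fold limit, as did 31.2% of all tested genes, lower in dyW, without that library. Without both WT1 and dyW1, Pomk was at -4.32 (adjusted p = 0.0169), where 30.8% of all tested genes were lower by that rule, and Pomt2 was at -3.42 and no longer passed (adjusted p = 0.0892). Without the library labelled dyW3, Pomt2 was at -3.33 (limma adjusted p = 0.0454), Dpm1 was at -3.68 (adjusted p = 0.0106) and Gmppb turned to 1.21, while 41.4% of all tested genes were lower by the rule with no fold limit. Without dyW2, the estimates of Pomt1, Pomgnt1 and B3galnt2 turned to 0.20, 0.32 and 0.96. No member met the stricter rule under any of 16 alternatives. Several of these called 0 of all tested genes, so they say nothing particular about the members. These were a pseudocount of 10, scaling to 1 total, subtraction of the receptor level, and leaving out WT2, WT4, dyW2 or WT1 with dyW1. Quantile normalization called 2 of all tested genes lower, and a block for the replicate number called 1. Subtraction of the receptor level turned all 7 estimates positive, from 0.21 for Dpm1 to 3.49 for B3galnt2, none with an adjusted p under 0.05. The receptor level is 0 in dyW1 and dyW2, so this subtraction lowers the WT libraries and the library labelled dyW3, and it moved the median of all tested genes from -1.99 to 0.30.

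**Figure D3:**
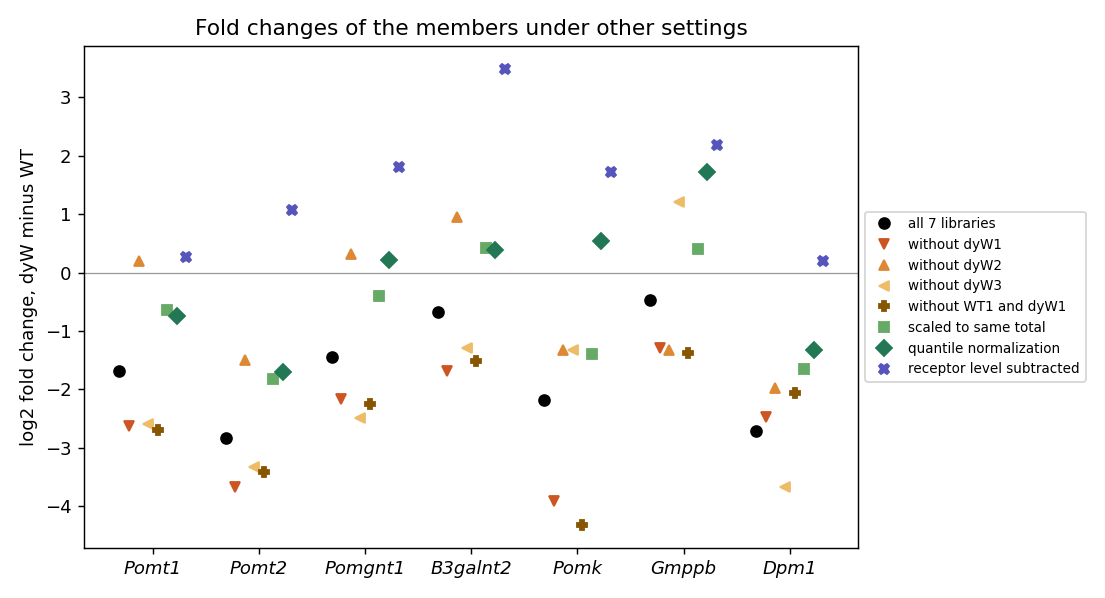
Limma log2 fold changes (dyW minus WT) of the 7 members with all 7 libraries, without single libraries or without WT1 and dyW1 together, and under other scalings or after subtraction of the receptor level. The spread of symbols over a member shows how far its estimate moved, from -4.32 to 1.72 for Pomk and from -1.68 to 3.49 for B3galnt2.

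The other genes of the pathway were compared in the same fit. Of 25 compared in 4 lists, 1 was called lower and 0 higher by the stricter rule, beside 18.7% of all tested genes called lower. With an adjusted p under 0.05, 3 were lower and 0 higher, beside 29.6% of all tested genes lower, and 7 had an unadjusted limma p under 0.05, beside 44.3%. Each of these shares of the 25 lay below that of all tested genes. Without dyW1, 7 of the 25 had an adjusted p under 0.05, where 31.2% of all tested genes were lower and 1.09% higher by that rule. Their median log2 fold change was -0.60, beside -1.99 over all tested genes. In 5 of them every WT library lay above every dyW library (31.5% over all tested genes) and in 2 the reverse held (3.28%). The 5 were Mpi, Mgat5b, B3gat1, Dhdds and Tmtc1. The 2 were Nus1, a subunit of the enzyme that makes the dolichol chain, and Tmtc2, an O-mannosyltransferase of cadherins, and they, Dhdds and Tmtc1 were named after their values were seen. Nus1 was at 29.7 to 57.4 normalized counts in WT and 77.2 to 264 in dyW (limma log2 fold change 1.62, SE 0.643, adjusted p = 0.0835), and Tmtc2 was at 15.99 to 37.8 in WT and 40.3 to 146 in dyW (1.86, SE 0.700, adjusted p = 0.0716). In the other direction, Dhdds was at 40.5 to 58.6 in WT and 0 to 28.3 in dyW (-2.55, SE 1.15, adjusted p = 0.119). Tmtc1 was at 26.7 to 48.5 in WT and 0 to 26.4 in dyW (-2.14, SE 1.15, adjusted p = 0.188).

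Among 3 other genes that act on the same glycan, none passed either rule, and all estimates were negative, with a median of -1.65. The most abundant was Rxylt1 (listed as Tmem5), a xylosyltransferase, at 58.6, 64.7, 80.0 and 50.3 normalized counts in WT1 to WT4 and at 67.0, 205.9 and 4.88 in the dyW libraries (limma log2 fold change -0.54, SE 1.10, adjusted p = 0.733). Its dyW values fell above, within and below the WT range. Pomgnt2, which adds N-acetylglucosamine before B3GALNT2 acts, was at 10.7, 13.5, 18.5 and 3.15 in WT and at 0, 28.8 and 0 in dyW (-1.80, SE 1.28, adjusted p = 0.309). Both genes were highest in dyW2, where most of the members were lowest.

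Among the 11 genes that supply activated mannose and dolichol, only Mpi passed an adjusted p under 0.05. By that rule 29.6% of all tested genes were lower. Mpi encodes phosphomannose isomerase, which feeds mannose phosphate into the pathway that GMPPB completes. It was at 143.9, 40.5, 43.1 and 62.9 normalized counts in WT1 to WT4 and at 15.7, 0 and 0.977 in the dyW libraries. Its limma log2 fold change was -4.32 (SE 1.05, adjusted p = 0.0128). Mpi had every WT library above every dyW library, as did 31.5% of all tested genes. Without dyW1 it met the stricter rule (-5.51, adjusted p = 0.00818). It passed neither rule with libraries scaled to 1 total (limma log2 fold change -3.40, adjusted p = 0.0818), quantile normalization (-2.82, 0.178), voom (-4.50, 0.0985) or subtraction of the receptor level (-0.63, 0.897), and the estimate was negative in each. The 83 WT reads of Mpi were 1.07 times the receptor level (exact 95% Poisson interval 0.851 to 1.32). The list as a whole had a median of -0.45, with 8 estimates negative and 3 positive.

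Among the 6 genes for sugar donors and modifiers of O-mannose glycans, B3gat1 and Mgat5b passed an adjusted p under 0.05, a share close to the 29.6% of all tested genes that were lower by that rule. B3gat1, a glucuronyltransferase of the HNK-1 epitope, was the 1 of the 6 to meet the stricter rule, beside 18.7% of all tested genes, with a fitted log2 fold change of -3.70 (SE 0.686, limma adjusted p = 0.00466). It was at 5.33, 18.9, 10.3 and 18.9 normalized counts in WT1 to WT4 and at 0 in all 3 dyW libraries. Its mean over all 7 libraries, 7.62, thus passed the filter of 5 through the WT values alone. With the filter dropped its limma adjusted p was 0.00576. With 3 reads per dyW library as the limit, its mean of 13.3 in WT was at least 18.7-fold higher than in dyW, or at least 39.7-fold without the library labelled dyW3. The 19 WT reads of B3gat1 were 0.555 times the receptor level (exact 95% Poisson interval 0.334 to 0.866). The limma adjusted p of B3gat1 was 0.0130 without WT2, 0.0125 without WT4, 0.0164 without dyW1 and 0.0241 without dyW2, so that only the rule with no fold limit was then met. Its fitted log2 fold change was -3.49 without either of those WT libraries and stayed at -3.70 without either of those dyW libraries. With quantile normalization its fold change was -0.35 (adjusted p = 0.820) and after subtraction of the receptor level it was 0, so that neither rule was met. Mgat5b, which branches O-mannose glycans in the brain, was at 21.3, 24.3, 6.15 and 59.8 in WT and at 3.12, 0 and 0 in dyW (limma log2 fold change -3.80, SE 0.948, adjusted p = 0.0146), and its WT reads were 0.873 times the receptor level (0.608 to 1.21). Without WT2 its log2 fold change was -3.73 with an adjusted p of 0.0516, and without WT3 it met the stricter rule (-4.34, adjusted p = 0.00937). With libraries scaled to 1 total, quantile normalization or subtraction of the receptor level, the log2 fold change of Mgat5b was -3.07, -1.03 and -0.79, with a limma adjusted p of 0.0717, 0.686 and 0.751.

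No gene of the list of 5 other protein O-mannosyltransferases passed either rule. Its most abundant genes were Tmem260, which acts on plexins and related receptors, at 64.0 to 104 normalized counts in WT and 14.0 to 125 in dyW (limma log2 fold change -0.84, SE 0.784, adjusted p = 0.438), and Tmtc3, a cadherin mannosyltransferase, at 34.6 to 85.3 in WT and 35.4 to 117 in dyW (0.53, SE 0.684, adjusted p = 0.579). For the substrate, Dag1 (chr9:108081833-108152333, minus strand) was at 175.9, 148, 139 and 208 normalized counts in WT1 to WT4 and at 113, 342 and 161 in the dyW libraries. Its dyW values fell on both sides of the WT range, with a limma log2 fold change of 0.15 (SE 0.557, 95% interval -1.11 to 1.41, adjusted p = 0.856). Dag1 was highest in dyW2, the library in which most of the members had their lowest value.

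**Figure D4:**
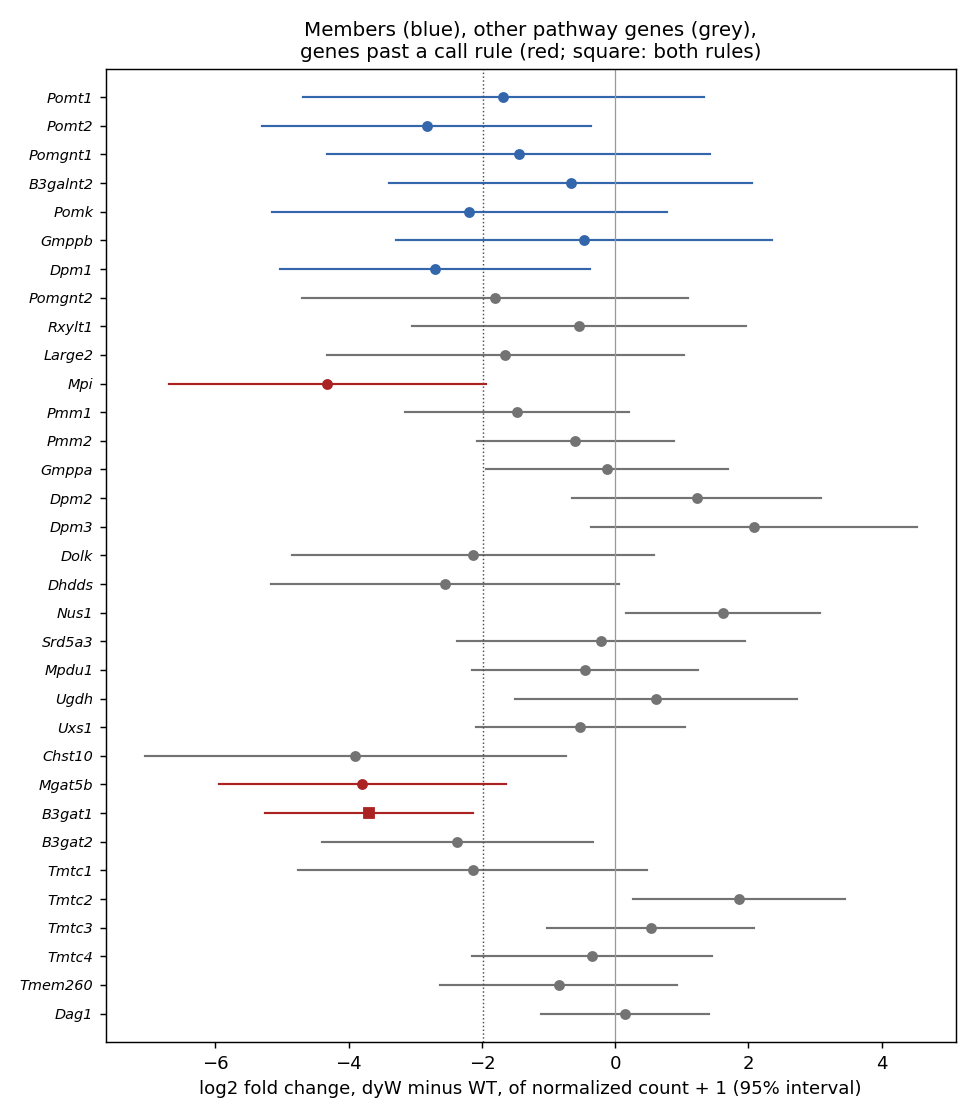
Limma log2 fold changes with 95% intervals for the 7 members (blue), the 25 other pathway genes and Dag1 (grey, or red where an adjusted p under 0.05 was reached, with a square for B3gat1, which met both rules). The dotted line marks the median of all tested genes, -1.99, and the interval of 5 of the 7 members includes both 0 and that median.

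The members differed from each other in their pattern over the 7 libraries. By the root mean square difference of their centred log2 values, Pomt1 and Pomgnt1 were the closest pair, at 0.454, and Pomt1 and Gmppb were the farthest apart, at 2.95. Gmppb was the farthest member for 5 of the other 6. Among 17990 named genes, the nearest pattern to Pomt1 was that of Ddi1 (0.187), to Pomt2 that of Mical1 (0.131), to Pomgnt1 that of Pced1a (0.215) and to B3galnt2 that of Nlk (0.280). The nearest to Pomk was Fam196a (0.168), to Gmppb Klhl5 (0.220) and to Dpm1 Il4 (0.305). With 7 libraries and this many genes, such likeness is a description only. Mical1, for example, shared with Pomt2 the highest value in WT1 (74.6 normalized counts) and no read in dyW2.

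All 7 members share exonic bases with a neighbouring or antisense gene in the annotation, from 7 bp for Pomt1 (with Uck1) to 2211 bp for Dpm1 (Mocs3 and 3 gene models). Pomt2 overlaps Gstz1 over 674 bp, Pomgnt1 overlaps Lurap1 over 732 bp, B3galnt2 overlaps Tbce over 1250 bp and Gmppb overlaps Rnf123 over 1403 bp, all on the opposite strand. Since the strand setting of the read counting is not given in the sources used here, reads in these stretches cannot be told apart by gene. Tbce, on the other strand of B3galnt2, averaged 23.7 normalized counts in WT and 78.6 in dyW, and Rnf123, beside Gmppb, averaged 33.4 and 12.5.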

How the data were processed

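RNA of muscle fibers was sequenced in 7 libraries, grouped by the genotype in the sample labels. The authors made SMART-seq2 cDNA and Nextera XT libraries, and, per their methods and processing notes, used Cutadapt, RNA STAR (GRCm39), FeatureCounts on uniquely mapped reads and DESeq2 scaling. The deposited normalized counts are counts divided by 1 size factor per library. Versions, strand setting and annotation release are not given in the sources used here. A deposited table of the authors' fold changes and p-values was not used.

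Each library's values were divided by their smallest step to recover reads (100% of values whole within 0.1 read), and the depth ranged from 470804 to 18297106 reads. Intervals and the limit of 3 reads for a count of 0 cover counting error only. Groups were compared with limma 3.58.1 (R 4.3.3; linear model with trended empirical Bayes) on log2(normalized count + 1), with Benjamini-Hochberg adjustment over genes with a mean of at least 5, and single members by exact permutation tests in scipy 1.17.1 (Python 3.11.15). Nothing says whether libraries within a group shared a litter, so p-values measure only the spread between these samples. The code was tested on simulated data. Exon lengths, coordinates and overlaps came from GENCODE mouse release 39 (99.2% of gene identifiers matched).

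The members and all gene lists were chosen with earlier results of these data known, and some pathway genes are not reported here. Named genes are all members, other pathway genes past a call rule or, where a list had none, its 2 most abundant genes, Dag1, Lama2 and the nearest gene to each member; 4 other pathway genes were named after their values were seen, as stated there. As alternatives, the pseudocount was set to 0.1 or 10, and the filter was dropped or raised to 50. Others were scaling to the same total, quantile normalization, a replicate block, each library left out, subtraction of the receptor level, a second call rule and coding length. Voom on the recovered reads and leaving out WT1 and dyW1 together were added after seeing the data.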

Additional observations from a re-analysis of the deposited data

How the results depend on the processing

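The count of called members was 0 in each direction under all 16 alternatives that could be fitted for them. Some of these alternatives called 0 of all tested genes too, as given below. Of the 119 member fits, 1 for each member and setting, 5 reached an adjusted p under 0.05 in limma. They came without dyW1, without the library labelled dyW3, or without WT1 and dyW1 together. In these settings 31.2%, 41.4% and 30.8% of all tested genes were lower by that rule. No member had a mean of at least 50 normalized counts, so that filter gave no member value. The count tests planned with edgeR and DESeq2 were not run; voom on the recovered reads, added after seeing the data, was the only test on reads. The median log2 fold change of all tested genes was -1.99, against -1.19 with libraries scaled to 1 total and 0.06 with quantile normalization.

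Of the member estimates, quantile normalization turned Pomgnt1 to 0.21, B3galnt2 to 0.39, Pomk to 0.54 and Gmppb to 1.73, and Dag1 to -0.74. Scaling to the same total turned B3galnt2 to 0.42 and Gmppb to 0.41, a pseudocount of 10 turned Gmppb to 0.15 and voom turned it to 1.19. After subtraction of the receptor level Pomt1 stood at 0.27, Pomt2 at 1.08, Pomgnt1 at 1.80, B3galnt2 at 3.49, Pomk at 1.72, Gmppb at 2.19, Dpm1 at 0.21 and Lama2 at 0.98, from -2.58 as deposited. The cause was not tested. Under the alternatives the adjusted p of Mpi ran from 0.00818 to 0.897, that of Mgat5b from 0.00937 to 0.751 and that of B3gat1 from 0.000718 to 1. Leaving out single libraries gave -2.63 to 0.20 for Pomt1, -2.48 to 0.32 for Pomgnt1, -1.68 to 0.96 for B3galnt2, -1.32 to 1.21 for Gmppb and -0.29 to 0.50 for Dag1.

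With an adjusted p under 0.05, 3 other pathway genes were lower, and 7625 of all tested genes were lower and 261 higher. By the stricter rule, 4830 of all tested genes were lower and 17 higher. A pseudocount of 10, a mean of at least 50, scaling to the same total, subtraction of the receptor level and leaving out WT1 and dyW1 together each gave 0 other pathway genes, 0 lower and 0 higher among all genes, although between 1253 and 10924 genes had an unadjusted limma p under 0.05 there. Quantile normalization gave 0 other pathway genes, with 2 lower and 0 higher among all. Calls higher in dyW numbered 41 with a pseudocount of 0.1, 10 with no filter and 68 with voom. Leaving out single libraries gave 0 to 2 other pathway genes lower, and 0 to 6698 lower and 0 to 25 higher among all genes, with 0 calls without WT2, WT4 or dyW2 and 2090 lower without dyW1.

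The labels do not say whether the replicate numbers pair the samples. The deviations of same-numbered libraries correlated at 0.147, -0.0494 and -0.0880 over genes, and WT3 correlated best with dyW2 (0.225). With 4 and 3 libraries, such correlations cannot decide whether any libraries shared a litter. With a replicate block, 0 members and 0 other pathway genes were called, and among all genes 1 was lower and 0 higher. With the block the log2 fold change was -3.49 for B3gat1 (adjusted p = 0.0614), -4.32 for Mpi (0.0614) and -3.31 for Mgat5b (0.0905), beside -3.70, -4.32 and -3.80 without it, so no other pathway gene passed either rule. Depth limits the WT values, since 1 read was worth up to 5.33 normalized counts.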
